A study of Rattus norvegicus with 16 samples.

Results

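Transcripts at microRNA loci were taken as the rows of 2 deposited expression tables, one of hippocampal CA1 and one of white blood cells (WBC), whose gene symbol began with Mir and a digit or with Mirlet7. Rows that named several genes were left out (29 in each table), and where a symbol had more than 1 row the row with the highest mean was used. The rule found 362 microRNA symbols in either table, of 16638 named symbols in all, and 336 of them were in both. The CA1 table listed 355 microRNA symbols among 16405 named symbols, and the WBC table listed 343 among 16395.

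The study measured poly-A RNA by RNA-seq in male Sprague Dawley rats of 200 to 240 g. The rats received either a fluid percussion injury, a pressure pulse to the brain that models traumatic brain injury (TBI), or sham surgery, which all control rats therefore had. They were tested for learning at 1 week after surgery and then killed, and CA1, the first field of the hippocampus proper, and WBC were frozen. Sham and TBI rats gave 4 libraries each from either tissue, 16 in all over 4 groups, and libraries are named here by the number in their titles. The labels give no age, and do not say whether each library came from 1 rat, so p-values measure the spread between these libraries.

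A microRNA is cut from a hairpin that is folded within a longer primary transcript. Drosha with Dgcr8 frees the hairpin in the nucleus, Xpo5 exports it, Dicer trims it and an Argonaute protein carries the mature strand to target mRNAs, which it recognises mainly through its seed (bases 2 to 8). Many hairpins lie inside introns of protein-coding genes or inside long noncoding RNAs, and some have a primary transcript of their own. Poly-A selected libraries with fragments of 200 to 400 bp hold primary and host transcripts, so the values below are not levels of mature microRNA.

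Mature rat sequences were found in RefSeq (assembly GRCr8) for 314 of the 362 symbols and for 40 of the 47 symbols that had a value above 0 in some library. The sequences below belong to the loci that the results turn on, are written 5′ to 3′ and carry the seed in capitals. The first lines show loci among the most abundant of CA1 or WBC (Mir9-1, Mir98, Mir142, Mir223, Mir22 and Mir32), together with the loci that share a seed with one of them and the Mir138 pair, which share theirs:
rno-miR-9a-5p (from Mir9-1 and Mir9-2): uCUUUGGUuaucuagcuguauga
rno-miR-98-5p (Mir98): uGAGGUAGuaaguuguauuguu
rno-let-7i-5p (Mirlet7i): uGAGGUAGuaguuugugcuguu
rno-miR-142-3p (Mir142): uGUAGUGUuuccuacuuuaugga
rno-miR-223-3p (Mir223): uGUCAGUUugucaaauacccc
rno-miR-22-3p (Mir22): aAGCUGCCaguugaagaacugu
rno-miR-32-5p (Mir32): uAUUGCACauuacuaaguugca
rno-miR-92b-3p (Mir92b): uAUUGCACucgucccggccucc
rno-miR-138-5p (Mir138-1 and Mir138-2): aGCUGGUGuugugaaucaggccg
The next lines show the tested loci, those with a mean of at least 1 FPKM, whose TBI libraries did not overlap the sham libraries in CA1 (Mir770, Mir410) or in WBC (Mir874; Mirlet7i is given above):
rno-miR-770-5p (Mir770): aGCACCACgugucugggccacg
rno-miR-410-3p (Mir410): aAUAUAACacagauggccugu
rno-miR-874-3p (Mir874): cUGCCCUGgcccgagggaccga

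Among the loci with a value above 0, 5 seeds were shared by 2 loci each. Mir98 and Mirlet7i share GAGGUAG, the seed of the let-7 family, which is known for holding back proliferation and growth programmes. Mir32 and Mir92b share AUUGCAC, the seed of the miR-25 and miR-92 family. The remaining 3 shared seeds come from pairs that give the same mature microRNA: CUUUGGU and UAAAGCU from the 2 arms of Mir9-1 and Mir9-2, and GCUGGUG from Mir138-1 and Mir138-2. Loci with a shared seed could differ in level: in CA1 Mir98 had a mean of 51.1 FPKM and Mirlet7i 0.868 FPKM.

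The libraries matched their labelled tissue. The summed FPKM (fragment counts scaled to transcript length and to the library's total) of 7 CA1 neuron markers was 4479 to 6469 over CA1 libraries and 7.03 to 18 over WBC libraries. The sum of 9 leukocyte markers was 2014 to 3325 in WBC and 38 to 51 in CA1. Choroid plexus markers, which mark tissue of the ventricle next to the hippocampus, had sums from 65.6 (sham 1) to 2850 (TBI 1) in CA1; 8 of those 9 genes were above 0 and Otx2 was at 0. In WBC the sum of 14 red cell markers was 14602 to 23142 in sham and 5978 to 14268 in TBI, and that of 8 matched platelet markers was 8070 to 10874 in sham and 2503 to 7425 in TBI, with none of either list at 0.

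Most microRNA loci were listed at 0. In CA1 41 of 355 loci (11.5%) were above 0 in at least 1 library, against 84.9% of all named symbols, and in WBC 19 of 343 (5.54%) against 78.7%. Of the 47 loci above 0 in either tissue, 28 were above 0 in CA1 and not in WBC, 6 in WBC and not in CA1, and 13 in both. A mean of at least 1 FPKM over the 8 libraries of a tissue was reached by 29 loci in CA1 and 17 in WBC. The 2 tables were normalized separately, so levels set across the tissues are side by side values and not a test.

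**Figure D1:**
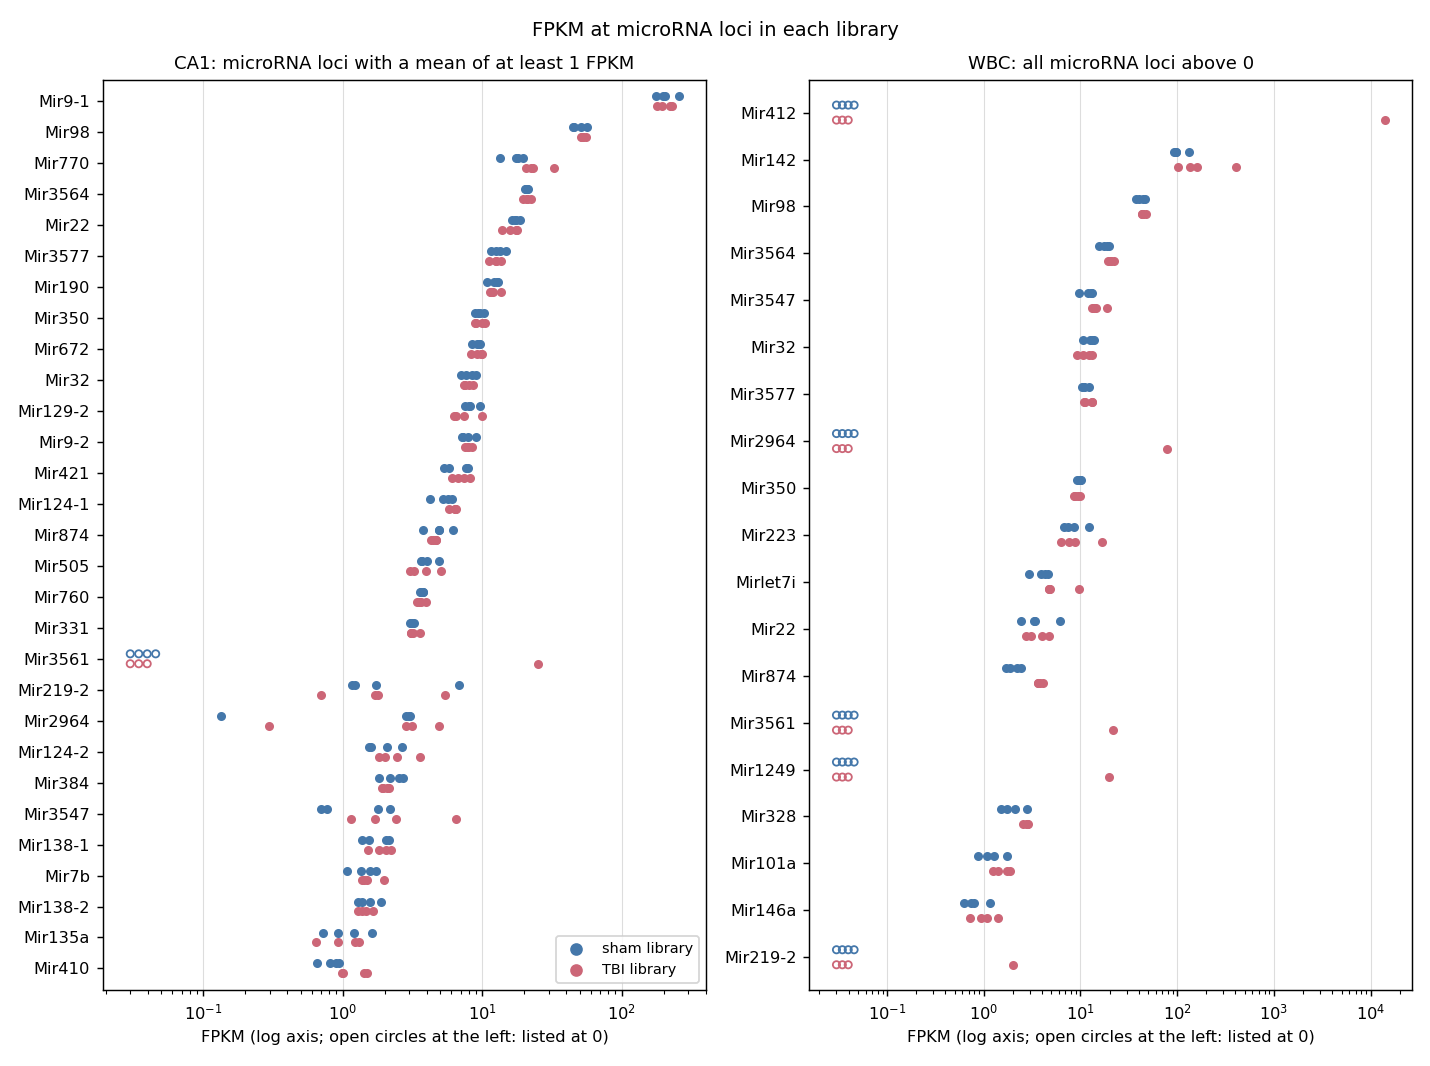
FPKM of microRNA loci in each library on a log axis, in CA1 for the 29 loci with a mean of at least 1 FPKM and in WBC for the 19 loci above 0; blue points are sham and red points TBI libraries, and open circles at the left edge mark libraries listed at 0. Mir9-1 leads CA1 at 177 to 256 FPKM, Mir142 leads the WBC loci that were above 0 in every library, and 5 WBC loci have a value in 1 library only.

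The highest microRNA locus of CA1 was Mir9-1, a source of miR-9, which is known for its part in neural progenitors and neuron maturation. Its FPKM was 196.8, 176.9, 204.3 and 255.5 in sham libraries 1 to 4 and 180.1, 228.0, 195.1 and 223.4 in TBI libraries 1 to 4. The mean of 208 FPKM lay above 97.6% of all CA1 rows tested, and the TBI libraries lay within the range of the sham libraries. Mir9-2, which gives the same mature sequence, had a mean of 7.91 FPKM, and both loci were listed at 0 in all WBC libraries.

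Of 23 loci in a list of brain-enriched microRNAs, 11 were above 0 in CA1, and of 26 in the WBC list only Mir219-2 was, in a single library. Mir124-1, a locus of the neuron-restricted miR-124, had a mean of 5.77 FPKM in CA1, Mir124-2 one of 2.21 FPKM and Mir124-3 one of 0.655 FPKM. Besides these and the Mir9 loci, the members above 0 in CA1 were Mir138-1 (1.83 FPKM), Mir7b (1.5 FPKM), Mir138-2 (1.49 FPKM), Mir7a-2 (0.711 FPKM), Mir212 (0.58 FPKM) and Mir219-2 (2.56 FPKM). Mir129-2, which was not in the list, had a mean of 7.94 FPKM in CA1 and was listed at 0 in WBC. Rows naming several genes were not counted, and in CA1 some held list members. These were Mir125a with LOC688452 (mean 7.21 FPKM), Mir9-3 with Mir3597-3 (6.05 FPKM), Mir125b-2 with Mirlet7c-1 (0.972 FPKM) and Mir132 with Mir212 (0.95 FPKM).

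In WBC the leading locus with a value in every library was Mir142, whose microRNAs are known as markers of blood-forming cells. Its FPKM was 97.6, 133.3, 92 and 96.3 in sham libraries 1 to 4 and 158.9, 137.1, 406.0 and 101.0 in TBI libraries 1 to 4. TBI 3 stood far above the other 7 libraries, which lay between 92 and 159. Mir142 was listed at 0 in CA1. Of 17 loci in a list of blood-cell microRNAs, 3 were above 0 in WBC: Mir142, Mir223 (mean 9.3 FPKM; the source of the myeloid microRNA miR-223) and Mir146a (0.934 FPKM; a brake on Toll-like receptor signalling). Of 24 such loci in CA1, Mir92b alone was above 0, at 0.571 FPKM. The rule left out rows naming several genes, so list members in such rows were not counted. In WBC these were Mir150 with Rpl13a at a mean of 12.2 FPKM and the Mir17-1 to Mir92a-1 cluster at 2 FPKM. Mir21, which was not in the list, was in a left-out row with Vmp1 at a mean of 17.5 FPKM.

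Several loci had similar values in both tissues. Mir98, a let-7 family locus, was at 44.7 to 56.4 FPKM in CA1 and 37.9 to 47.8 FPKM in WBC. Mir3564 had means of 20.9 FPKM in CA1 and 19.2 FPKM in WBC, Mir3577 of 12.8 and 11.7 FPKM, Mir350 of 9.53 and 9.47 FPKM and Mir32 of 7.96 and 11.9 FPKM. Mir22 was higher in CA1 (16.8 FPKM against 3.73 FPKM) and Mir3547 higher in WBC (13.5 FPKM against 2.14 FPKM), with no overlap between the libraries of the 2 tissues for either locus.

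The share of loci with a value varied with their position relative to other genes. The positions came from RefSeq on GRCr8, another build than the rn5 of the tables, and were used only for which gene holds a locus; 323 of the 362 symbols had one. Among loci inside a protein-coding gene of the same strand whose host had a row of its own, 4 of 75 (5.33%) were above 0 in CA1 and 2 of 70 (2.86%) in WBC. Those 2, Mir1249 and Mir2964, had a WBC value in library TBI 3 alone. Where no row was matched to the symbol or a RefSeq synonym of the host, 9 of 18 (50%) were above 0 in CA1 and 6 of 19 (31.6%) in WBC. The 9 in CA1 were Mir98 (inside Huwe1, a ubiquitin ligase gene), Mir3577 (Tmem94), Mir190 (Tln2, which codes for talin 2, a link between integrins and actin), Mir350 (Cep170, a centrosome protein gene), Mir672 (Nexmif), Mir32 (Tmem245), Mir9-2 (Mir9-2hg), Mir874 (Klhl3, a ubiquitin ligase adaptor gene) and Mir3547 (Baiap3). These shares are counts over loci, some of which share a host, and no test was made of them.

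**Figure D2:**
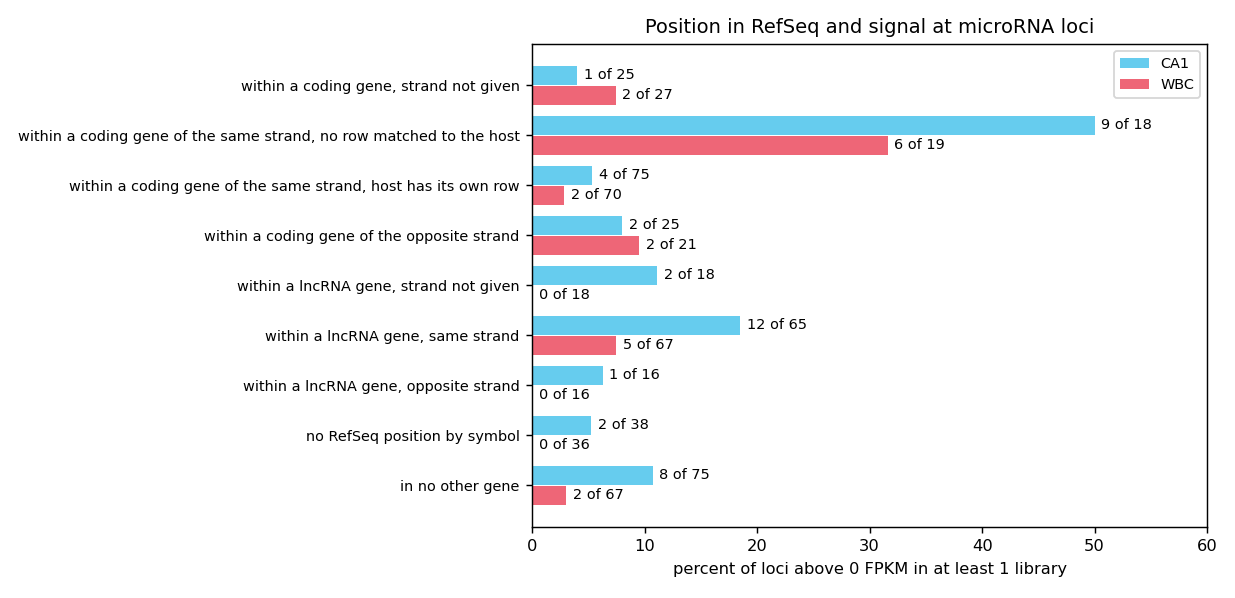
Percent of microRNA loci above 0 FPKM in at least 1 library, by position in RefSeq, for CA1 (light blue) and WBC (red); labels give the counts, and classes with at least 15 loci are shown. The bars for loci inside a same-strand coding gene with no matched host row are the longest in both tissues, at 50% in CA1 and 31.6% in WBC.

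Loci in long noncoding RNA genes of the same strand had values in 12 of 65 cases in CA1 (18.5%) and 5 of 67 in WBC (7.46%). They included Mir9-1, Mir770 inside Meg3, Mir421 inside Ftx (a regulator of X inactivation) and Mir223. Where a host had a row of its own, the pair could differ in level. In CA1 Mir331 had a mean of 3.17 FPKM and its host Vezt, an adherens junction gene, 14.6 FPKM, while Mir138-2 had 1.49 FPKM and its host Slc12a3, the kidney sodium chloride cotransporter gene, 0.101 FPKM. In WBC the order was different: Mir138-2 was listed at 0 while Slc12a3 had a mean of 2.7 FPKM. Mir3564 lies opposite Klhdc4, which had means of 11.3 FPKM in CA1 and 6.29 FPKM in WBC; no source used here says whether counting used strand, so reads of the 2 genes may not be told apart.

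Some microRNA rows had a large value in 1 library and 0 in all others. Mir412 was listed at 14092 FPKM in WBC TBI 3 and at 0 in the other 15 libraries. The same library alone carried Mir1249 (19.7 FPKM), and among WBC libraries it alone carried Mir2964 (78.2 FPKM) and Mir219-2 (1.99 FPKM). Mir3561 was listed at 24.9 FPKM in CA1 TBI 2 and at 21.9 FPKM in WBC TBI 4, with 0 in the other 14 libraries, and a second row of Mir3564 had 18.1 FPKM in WBC TBI 4 alone. MicroRNA symbols made up 1.77% of the summed FPKM of WBC TBI 3 and 0.0293 to 0.0619% in the other WBC libraries.

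Rows with a value in exactly 1 library were few in both tables, 1.74% of the CA1 rows above 0 and 3.07% of the WBC rows above 0. With a mean of at least 1 FPKM as well, 2 such rows remained in CA1, 1 of them a microRNA row, and 6 in WBC, 5 of them microRNA rows. The hairpins in RefSeq measured 59 to 120 nt (median 87), shorter than the 200 to 400 bp fragments of these libraries, and FPKM divides by transcript length. The part of length in these single values was not tested. They are given as library values with no mean.

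One pair of overlapping loci took opposite values in the same libraries. Mir219-2 and Mir2964 lie on opposite strands of 1 site, and their mature microRNAs pair with each other over 20 bases, which are in capitals in these lines:
rno-miR-219a-2-3p (Mir219-2): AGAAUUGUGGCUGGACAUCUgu
rno-miR-219b (Mir2964): AGAUGUCCAGCCACAAUUCUcg
MiR-219 is known for its part in oligodendrocyte maturation. The CA1 row of Mir219-2 had 6.77, 1.22, 1.16 and 1.74 FPKM in sham libraries 1 to 4 and 5.39, 0.703, 1.71 and 1.78 FPKM in TBI libraries 1 to 4. The row of Mir2964 had 0.134, 2.98, 2.83 and 3.01 FPKM in sham and 0.298, 4.88, 2.85 and 3.11 FPKM in TBI. Sham 1 and TBI 1 were thus high for Mir219-2 and low for Mir2964, and the other 6 libraries had the reverse order, while the sum of the 2 rows stayed between 4 and 6.91 FPKM. Cercam, the coding gene around Mir2964, was at 0.474 to 0.861 FPKM in the same libraries. Choroid plexus markers had their lowest sum in sham 1 and their highest in TBI 1. Their part in this order, and that of the title number these 2 libraries share, was not tested.

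**Figure D3:**
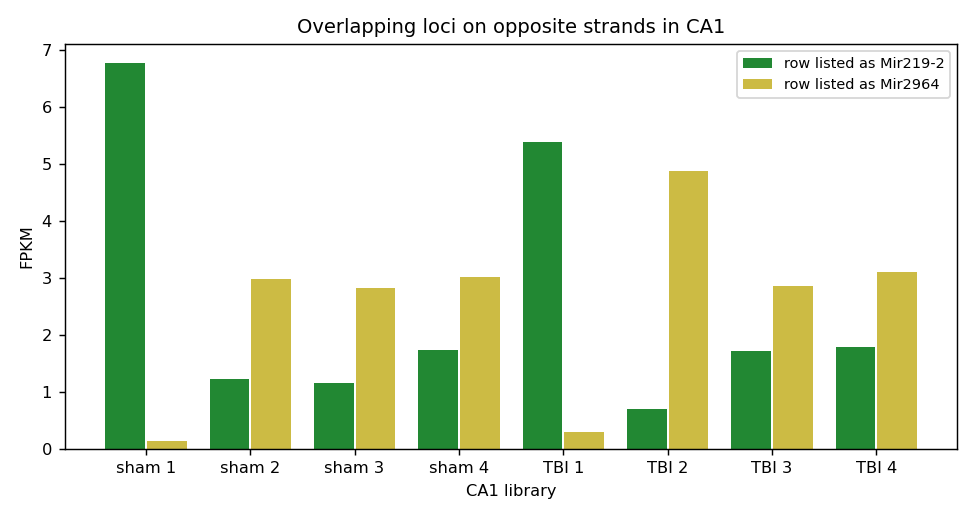
FPKM of the overlapping rows Mir219-2 (green) and Mir2964 (yellow) in each CA1 library. Mir219-2 has the taller bar in sham 1 and TBI 1 (6.77 and 5.39 FPKM), and Mir2964 has it in the other 6 libraries.

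TBI was compared with sham in CA1 on log2(FPKM + 0.5) with limma, a linear model with shared variance estimates, fitted to all 14637 rows that had a mean of at least 1 FPKM and a usable status in every library; 28 microRNA loci were among them. The row of Mir190 was left out for its status in TBI 1. Differences are TBI minus sham on this scale, which understates changes of low rows. In bulk tissue fewer cells of a type and less RNA per cell cannot be told apart. No microRNA locus passed the Benjamini-Hochberg threshold of 0.05 in limma, which 1 of the 14637 rows did (0.00683%).

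At an unadjusted p under 0.05 there were 2 of 28 loci, Mir770 and Mir410, both higher in TBI, where all rows gave 5.14% in either direction and 2.54% in that one. The same 2 loci were those whose libraries did not overlap between the groups, both higher in TBI, where all rows gave 2.88% in either direction and 1.28% in that one. Mir410 met the level filter only through its TBI libraries, so its place in these counts is no separate support. Over the 28 loci 16 differences were above 0 and 12 below, with a median of 0.01, and over all rows 46.7% were above 0, with a median of -0.01.

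Both of these loci belong to the Dlk1-Dio3 region, an imprinted cluster that is known for maternally expressed noncoding RNAs, Meg3 first among them, and a long run of microRNAs. Mir770, inside Meg3, had 17.5, 18.1, 13.3 and 19.7 FPKM in sham libraries 1 to 4 and 20.5, 32.9, 23 and 22.4 FPKM in TBI libraries 1 to 4. All TBI libraries were above all sham libraries, TBI 2 by the widest margin. The difference was 0.50 ± 0.16 (SE; 95% interval 0.13 to 0.88), with an adjusted p of 0.891 in limma, and 0.36 without TBI 2. No row was matched to Meg3 itself.

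Mir410, further along the cluster, had 0.809, 0.651, 0.935 and 0.896 FPKM in sham libraries 1 to 4 and 0.981, 1.43, 1.49 and 1 FPKM in TBI libraries 1 to 4. Its mean was 0.823 FPKM in sham and 1.23 FPKM in TBI, so it reached the filter of 1 FPKM only through the TBI libraries. The gap between the highest sham and the lowest TBI library was small beside the spread within TBI. The difference was 0.38 ± 0.14 (SE; 95% interval 0.05 to 0.71; limma adjusted p = 0.891). Mir370, the only other locus of the cluster above 0 in CA1, had a mean below 1 FPKM and was not tested; it was at 0.114 to 0.277 FPKM in sham and 0.21 to 0.419 FPKM in TBI, with overlap. In all 3 of the 40 listed loci of the cluster were above 0 in CA1, Mir770, Mir410 and Mir370.

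Dlk1, the paternally expressed coding gene at the edge of the same region, was at 0.443, 1.21, 0.993 and 0.404 FPKM in sham libraries 1 to 4 and 0.568, 8.43, 2.36 and 1.95 FPKM in TBI libraries 1 to 4. TBI 2 was the highest library for Dlk1, as it was for Mir770. It was also the highest CA1 library for loci outside the region such as Mir3547 and Mir124-2, and for the summed FPKM of microRNA symbols. Mir410 and Mir370 were highest in TBI 3 instead. The groups overlapped for Dlk1, and its difference of 1.23 ± 0.57 (SE) had an adjusted p of 0.891 in limma. Of the 5 other genes named for the region, Dlk1 alone was matched to a row.

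The remaining CA1 loci differed by less, or with a wider error. Mir3547 differed by 0.74 ± 0.46 (SE), and by 0.33 without TBI 2, which was at 6.47 FPKM against 1.14 to 2.41 FPKM in the other TBI libraries. Mir124-1 was at 4.22 to 6.04 FPKM in sham and 5.79 to 6.46 FPKM in TBI, a difference of 0.23 with a 95% interval of -0.00 to 0.47. Mir124-2 differed by 0.25 (0.09 without TBI 2) and Mir98 by 0.10 (0.05 without sham 2). Below 0 were Mir129-2 (-0.16; -0.29 without TBI 2 and -0.09 without sham 1 or TBI 3), Mir384 (-0.14; -0.07 without sham 2) and Mir22 (-0.09; -0.02 without TBI 4). Each of these small differences thus moved by more than 1.5 times when 1 library was left out, with no change of direction. The adjusted p of the 28 loci lay between 0.891 and 0.998 in limma.

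Mir9-1, the most abundant CA1 locus, differed by -0.01 with a 95% interval of -0.29 to 0.28 on the log2 scale. Some less abundant loci had narrower intervals. That of Mir3564 was -0.11 to 0.13, that of Mir350 -0.16 to 0.17 and that of Mir672 -0.16 to 0.18. These intervals measure the spread between libraries and do not show that the loci were equal.

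**Figure D4:**
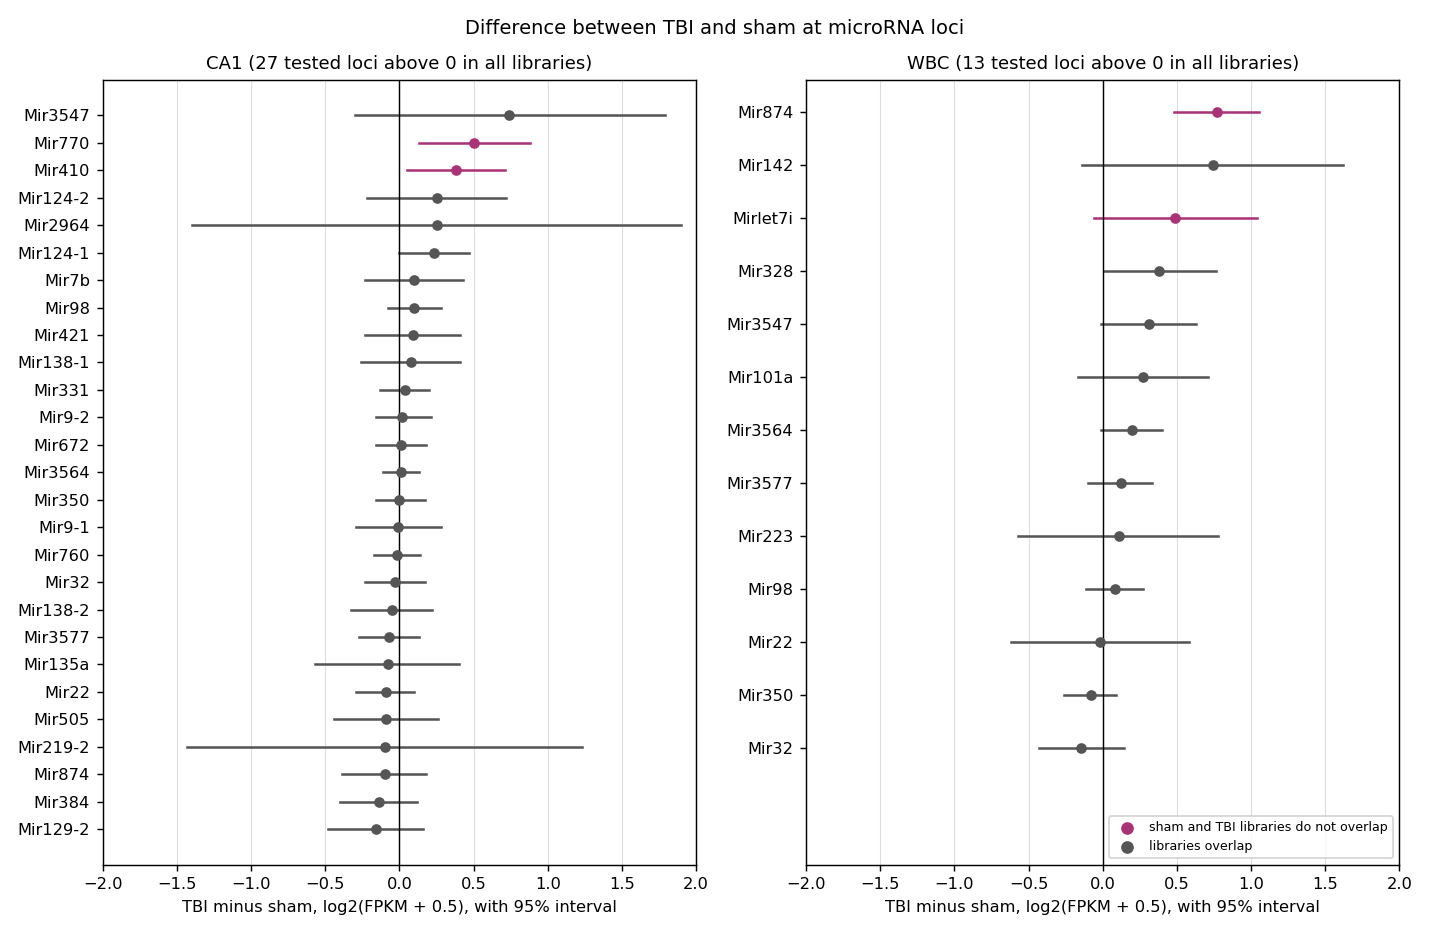
TBI minus sham on log2(FPKM + 0.5) with the limma 95% interval, for tested microRNA loci above 0 in all 8 libraries of CA1 (27 loci) and WBC (13 loci); purple marks loci whose sham and TBI libraries do not overlap. In CA1 most points lie near 0 and the purple ones are Mir770 and Mir410; in WBC 10 of 13 points lie above 0 and the purple ones are Mir874 and Mirlet7i.

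In the CA1 rows below the level filter, Mir145 drew notice after its values were seen. It lies inside Carmn, a noncoding RNA gene of smooth muscle, and miR-145 is known as a smooth muscle microRNA. Its FPKM was 0.0812, 0.0549, 0.12 and 0 in sham libraries 1 to 4 and 0.252, 0.333, 0.183 and 0.217 in TBI libraries 1 to 4. Every TBI library was above every sham library, at levels that the filter keeps out of the test. The share of all rows below the filter that separate in this way was not counted, so no result is drawn from it.

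In WBC 17 microRNA loci were among the 13413 rows tested. No locus passed the adjusted threshold in limma, and neither did any other row (0%). Before adjustment 2727 rows (20.3%) had a limma p under 0.05, of which 38.5% were higher in TBI, a share that was 56.5% after quantile normalization. Mir874 and Mir328, both higher in TBI, were the 2 loci of 17 at that level, where all rows gave 7.82% in that direction, and 5 loci reached it after quantile normalization. Mir874 and Mirlet7i were the 2 loci of 17 whose libraries did not overlap, both higher in TBI. All rows gave 14.2% in either direction and 5.61% in that one.

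Over the 17 WBC loci 14 differences were above 0, with a median of 0.31, against 49.6% of all rows and a median of -0.00. This count takes in 4 loci with a value in 1 TBI library only. Of the 13 loci above 0 in all libraries 10 differences were above 0, with a median of 0.20, and both counts were the same under median-ratio scaling and quantile normalization. Red cell and platelet marker sums were lower in TBI than in sham WBC, as given above; their part in these differences was not tested.

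Mir874, inside Klhl3, showed the clearest separation. It was listed at 2.43, 2.21, 1.69 and 1.85 FPKM in WBC sham libraries 1 to 4 and at 4.14, 3.61, 3.66 and 3.79 FPKM in TBI libraries 1 to 4. The lowest TBI library was above the highest sham library by more than the range of either group. The means were 2.04 ± 0.338 FPKM in sham and 3.8 ± 0.238 FPKM in TBI (SD, n = 4 each). The difference was 0.77 ± 0.12 (SE; 95% interval 0.48 to 1.05), with an adjusted p of 0.127 in limma, so it did not pass the threshold. The part of the red cell and platelet sums in it was not tested.

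Mirlet7i had 3.95, 4.34, 2.94 and 4.67 FPKM in WBC sham libraries 1 to 4 and 9.73, 4.89, 4.73 and 4.71 FPKM in TBI libraries 1 to 4. The groups did not overlap, but TBI 2, 3 and 4 were just above the highest sham library and TBI 1 stood far above all. The difference was 0.49 ± 0.24 (SE; limma adjusted p = 0.287) and 0.25 without TBI 1. TBI 1 also had the lowest red cell and platelet sums of the WBC libraries, 5978 and 2503 FPKM; their part was not tested. Mir98, which shares its seed, was at 37.9 to 46.2 FPKM in sham and 43.1 to 47.8 FPKM in TBI and differed by 0.08. Mirlet7i lies opposite the coding gene LOC134479799, which had no matched row. Whether counting used strand is not given, so reads of these genes may not be told apart.

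The Mir142 difference was 0.74 ± 0.38 (SE; limma adjusted p = 0.32), and it was 0.33 without TBI 3, the library at 406 FPKM. Mir328, inside Elmo3 with its strand not given, was at 1.5 to 2.81 FPKM in sham and 2.56 to 2.84 FPKM in TBI, a difference of 0.38 ± 0.16 (SE) with an adjusted p of 0.237 in limma. Mir3547 differed by 0.31 (0.20 without TBI 4), Mir101a by 0.27 (0.16 without sham 3), Mir3564 by 0.20 (0.13 without sham 1) and Mir3577 by 0.12 (0.07 without TBI 1). With the mean over its rows in place of the highest row Mir3564 differed by 0.40; its second row held a value in TBI 4 only. The myeloid locus Mir223 had 12.2, 8.5, 6.82 and 7.42 FPKM in sham libraries 1 to 4 and 6.3, 16.8, 7.62 and 8.78 FPKM in TBI libraries 1 to 4, with full overlap and a difference of 0.11 ± 0.29 (SE). Below 0 were Mir32 (-0.15; -0.06 without TBI 1), Mir350 (-0.08) and Mir22 (-0.02). The adjusted p of the 17 loci lay between 0.127 and 0.975.

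**Figure D5:**
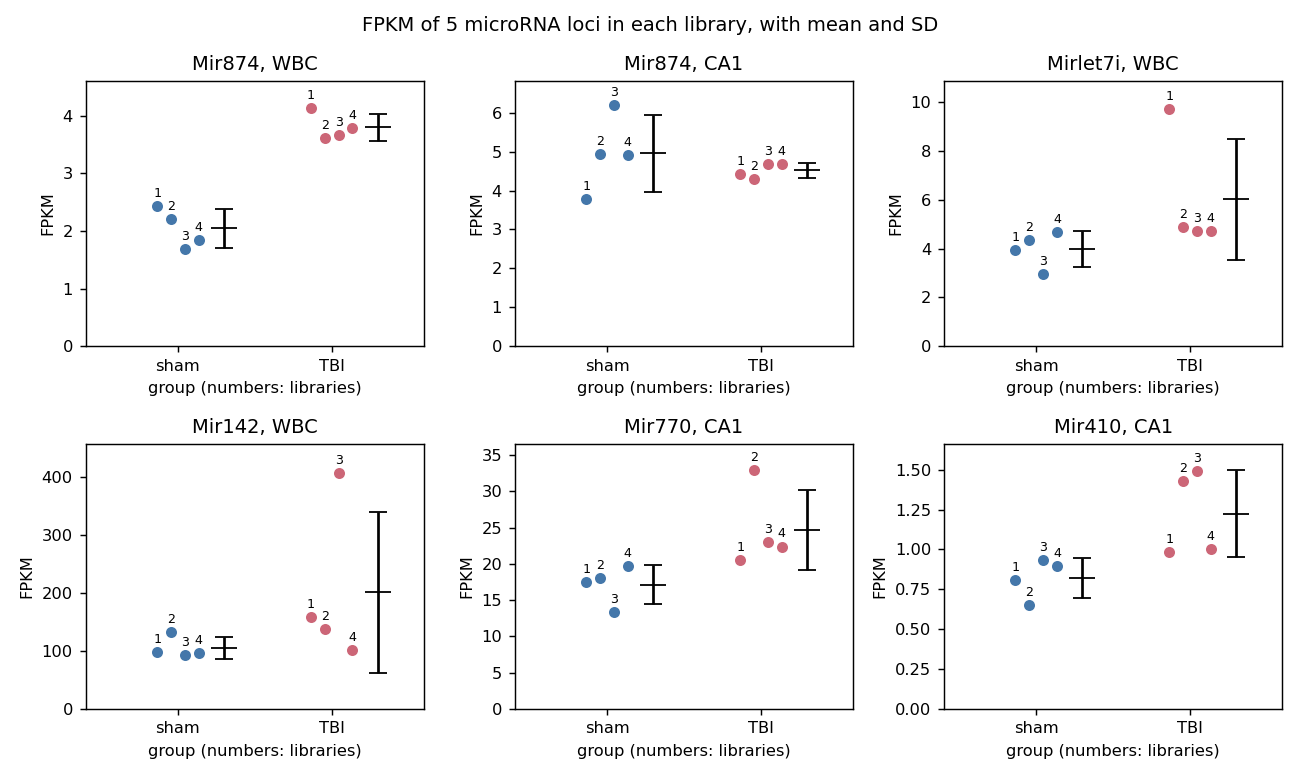
FPKM of 5 microRNA loci in each library, by group, with numbered points for the libraries and the mean and SD of 4 libraries beside them; Mir874 is shown in both tissues. In WBC the Mir874 TBI libraries (3.61 to 4.14 FPKM) lie apart from sham (1.69 to 2.43 FPKM), whereas in CA1 the groups overlap; Mirlet7i and Mir142 each have 1 TBI library far above the rest.

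Whether the TBI effect differed between the tissues was tested with an interaction term in limma over both tables, for 7570 genes tested in both, 10 of them microRNA loci. Mir874 passed: its effect was -0.10 in CA1 and 0.77 in WBC, a difference of 0.87 ± 0.17 (SE), with an adjusted p of 0.0381 in limma, at a threshold that 31 genes (0.41%) passed. In CA1 it had 3.78, 4.93, 6.19 and 4.92 FPKM in sham libraries 1 to 4 and 4.43, 4.29, 4.67 and 4.69 FPKM in TBI libraries 1 to 4, with overlap. The difference held its direction whichever library was left out, between 0.76 and 0.98, but the call did not hold: the adjusted p was above 0.05 without any one of 10 of the 16 libraries.

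Those libraries were CA1 sham 2 (0.0881), sham 3 (0.0778) and sham 4 (0.0848), CA1 TBI 1 (0.0715), TBI 2 (0.0808), TBI 3 (0.079) and TBI 4 (0.102), and WBC sham 2 (0.0556), sham 3 (0.0516) and TBI 4 (0.0637), with limma's adjusted p in parentheses. The adjusted p was also 0.0588 with no level filter and 0.057 on the mean over a symbol's rows. It was above 0.05 as well with a block that joined CA1 and WBC libraries of the same group and title number, given at the end. The other 9 loci did not pass. Mir3564 had a difference between the tissues of 0.18, or 0.39 on the mean over its rows, and Mir3577 one of 0.19. That of Mir3547 was -0.43 ± 0.50 (SE), and -0.02 without CA1 TBI 2. Mir2964, at 1.57 ± 1.78 (SE), rested on the value of WBC TBI 3.

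The proteins that make and carry microRNAs were read as a list of 36 genes, of which 21 were matched in CA1 and 22 in WBC. Dicer1 was matched in neither tissue, and of the Argonaute genes only Eif2c2 was tested. In CA1 18 were tested and none passed the adjusted threshold in limma. There were 7 differences above 0 and 11 below, with a median of -0.02, where all rows had -0.01. Ddx5, an RNA helicase that works with Drosha, was the 1 gene whose groups did not overlap, and the 1 gene at an unadjusted p under 0.05 (all rows in its direction, 1.6% and 2.6%), with a mean of 199 FPKM in sham and 177 FPKM in TBI (-0.17 ± 0.06, SE; limma adjusted p = 0.891). Drosha itself was at 21.3 FPKM in sham and 21.8 FPKM in TBI, and Dgcr8 at 5.85 and 5.82 FPKM.

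In WBC 20 were tested and none passed, with adjusted p from 0.137 to 0.992 in limma. There were 12 differences above 0 and 8 below with a median of 0.04. After quantile normalization 16 were above 0, but the median of all rows rose as well, from -0.00 to 0.05. Before adjustment 5 were higher and 2 lower at a p under 0.05 (all rows, 7.82% and 12.5%), and 4 higher and 2 lower did not overlap between the groups (all rows, 5.61% and 8.63%). The 4 were Prkra, a Dicer partner (means 6.1 FPKM in sham and 7.61 FPKM in TBI), Tnrc6a, which joins Argonaute to the silencing machinery (7.97 and 9.89 FPKM), Dgcr8 (6.8 and 8.29 FPKM) and Smad4, the shared SMAD of TGF-beta signalling (44.3 and 50.6 FPKM).

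The 2 lower ones were Xpo5, the exporter of the hairpin (38 FPKM in sham and 22.5 FPKM in TBI; -0.78 ± 0.21, SE; limma adjusted p = 0.14), and Eif2c2, the older symbol of Argonaute 2 (85.7 FPKM in sham and 53.3 FPKM in TBI; -0.78 ± 0.31, SE; adjusted p = 0.204). The WBC libraries with lower Xpo5 and Eif2c2 were those of the group with lower red cell and platelet sums, and the part of those cells was not tested. In CA1 the same genes had differences of -0.03 and 0.18.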

How the data were processed

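The deposited tables hold FPKM per gene locus, with a status for each value, for 8 CA1 and 8 WBC libraries made by the authors. Per the labels' protocols, 1000 ng of total RNA was selected for poly-A. The submitters' processing notes name TopHat, TopHat2, Bowtie, Bowtie2, Cufflinks, Cuffdiff and the build rn5. Their versions, the annotation, the strand setting and the normalization between libraries are not given in the sources used. Read depth is unknown, so no counting error can be given. Rows with no gene name (8207 in CA1, 7054 in WBC) stayed in the tests.

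The members and gene lists were chosen with earlier results of these data known. Each tissue was fitted with limma 3.58.1 (R 4.3.3) on log2(FPKM + 0.5), with a trend, over all rows with a mean of at least 1 FPKM and status OK in every library, with 2-sided p-values adjusted by Benjamini-Hochberg over all rows. The interaction used genes tested in both tissues. Loci are named where they passed, did not overlap, had 1 of the 10 smallest p or 10 highest means in a tissue, or 1 of the 5 smallest interaction p; others are named for a family, host gene or single-library value, and some of these after values were seen. The fit was tested on simulated data. Alternatives were the pseudocount, level filter, scaling, variance model, sample weights, status filter, threshold, row choice, a replicate block and leaving out each library. Positions and sequences are from RefSeq on GRCr8. Tables and figures were made with Python 3.11.15, numpy 2.4.6, pandas 2.3.3 and matplotlib 3.10.9.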

Additional observations from a re-analysis of the deposited data

Results flagged for a closer look

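In 60 groups of 4 libraries, 7 held a library whose gap to its nearest neighbour took up most of the group's range. The usual chance rate of about 1 in 20 groups does not apply to this count. The 60 include groups at 0 in every library, and a group with a value in 1 library is always flagged. The loci were also named from these same values. Mir124-1 was at 5.79 FPKM in CA1 TBI 4, below 6.36 to 6.46 FPKM in the other TBI libraries. Mir3561 was at 24.9 FPKM in CA1 TBI 2, Mir412 at 14092 FPKM and Mir2964 at 78.2 FPKM in WBC TBI 3, with the other libraries of each group at 0. Mir142 was at 133 FPKM in WBC sham 2, above 92 to 97.6 FPKM in the other sham libraries. Mir98 was at 47.8 FPKM in WBC TBI 4, above 43.1 to 43.8 FPKM, and Mirlet7i at 9.73 FPKM in WBC TBI 1, above 4.71 to 4.89 FPKM.

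The TBI effect on Mir874 differed between WBC and CA1 by 0.87 on the log2 scale in limma's interaction test (adjusted p = 0.0381), a call that ended without some libraries, named above, and under the alternatives given above and below.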

How the results depend on the processing

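The alternatives were read for 25 results at microRNA loci, those with the smallest limma p in CA1, in WBC and in the interaction. All 25 kept their direction under each alternative in which they could be tested, with 288 of 288 values outside the leave-one-out fits. They were chosen by p from these same data, so this count does not speak for other loci. The direction of loci named for their mean alone, such as Mir9-1 in CA1 and Mir223 in WBC, was not checked in this way. At a minimum mean of 5 FPKM there was no value for Mir410, Mir3547, Mir3561, Mir124-2 and Mir384 in CA1, for Mir874, Mirlet7i, Mir328 and Mir101a in WBC, or for the interaction of Mir874, Mir3547 and Mir2964. Mir410 had none in 2 leave-one-out fits either, and Mir3561, Mir412 and Mir2964 none without the library that carried them. No locus was called in CA1 or WBC under any setting. Rows called in CA1, 1 in all, were 3 at a threshold of 0.1, without the trend or with sample weights, 2 with quantile normalization, and 1 to 2 over leave-one-out fits (2 without sham 1, sham 2, TBI 1 or TBI 3). Rows called in WBC, 0, were 1 at a threshold of 0.1, 2 with rows of every status, and 0 to 4 over leave-one-out fits (1 without sham 2, 4 without TBI 2). The interaction's 31 genes were 329 at a threshold of 0.1, 13 with no level filter, 20 at a minimum mean of 5 FPKM, 281 with sample weights, and 6 to 222 over leave-one-out fits (222 without WBC TBI 3). CA1 loci at an unadjusted p under 0.05, 2, were 6 with no level filter, 5 with sample weights, 1 at a minimum mean of 5 FPKM, 4 without sham 1 and 1 without sham 2 or TBI 3; those not overlapping, 2, were 4 without sham 1, 1 without TBI 3 and 1 at a minimum mean of 5 FPKM. WBC loci at that p, 2, were 5 with quantile normalization, 1 with no level filter, 0 at a minimum mean of 5 FPKM and 1 without sham 4, TBI 1 or TBI 3; those not overlapping, 2, were 4 without sham 2 and 0 at a minimum mean of 5 FPKM. The Mir874 interaction had an adjusted p of 0.0107 to 0.102 over all alternatives that kept it in the test. The causes were not tested.

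Title numbers were not taken to pair libraries, since the labels do not say whether CA1 and WBC libraries of equal number share a rat. Same-numbered sham and TBI libraries deviated together with r of 0.02 to 0.24 in CA1 and -0.01 to 0.15 in WBC. CA1 and WBC libraries of equal number did so with r of 0.05 to 0.20. Of 8 CA1 libraries, 7 correlated best with the WBC library of their own number, yet the main interaction fit took all libraries as separate. Within a tissue the replicate block joined sham and TBI libraries of equal number. With it 1 row was called in CA1 (and 1 locus had an unadjusted p under 0.05) and 0 in WBC. In the interaction the block instead joined CA1 and WBC libraries of the same group and number. There 3 genes were called, and Mir874 had an adjusted p of 0.1 in limma.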
